A study of Mus musculus with 30 samples.

Results

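The Polycomb complex genes are 10 mouse genes chosen by name, Ezh1, Ezh2, Eed, Suz12 and Jarid2 of Polycomb repressive complex 2 (PRC2) and Ring1, Rnf2, Bmi1, Pcgf6 and Cbx7 of Polycomb repressive complex 1 (PRC1). They are 10 of 20558 protein-coding genes that NCBI RefSeq (GRCm38.p6, the same build as mm10) places on chromosomes 1 to 19, and their positions were set against the 2844 replication initiation zones of 1 OK-seq library. The library came from wild-type E14TG2a cells, an established mouse embryonic stem cell line, kept in LIF with inhibitors of GSK3 (CHIR99021) and MEK (PD0325901) and given 10 µM EdU for 2 min. It belongs to a series of 30 samples that follows parental and new histones onto the daughter strands behind the fork, in wild-type cells and in clones with the MCM2-2A change, which weakens histone binding by a subunit of the replicative helicase. The other 29 samples were not analysed here, so neither genotypes nor replicates were compared, and no markers of the cell type could be read from a list of positions.

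Polycomb proteins keep developmental genes silent in embryonic stem cells. PRC2 methylates histone H3 to H3K27me3, and PRC1 places ubiquitin on histone H2A and compacts chromatin. Genes that carry the marks must have them passed on when the replication fork takes nucleosomes apart. The genes placed here encode the Polycomb proteins, and whether they carry the marks was not tested. How marks are passed on was not tested either, since a list of positions holds no histone marks. OK-seq isolates Okazaki fragments, the short pieces of the lagging strand, and the strand they map to tells in which direction forks move. An initiation zone is a stretch where the pattern changes from leftward forks on its left to rightward forks on its right, with a breakpoint bin of 1 kb at the change. Each zone has a left and a right arm, from the breakpoint to the edges, and the longest arm listed is 100 kb. The width of a zone is given here as the sum of its arms, which is 1 kb less than the interval printed because that includes the bins at both edges, and breakpoint distances are taken from the centre of the bin. A gene is said to be read away from a breakpoint where transcription from its start leads off from the breakpoint, and toward it otherwise.

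Of the PRC2 genes 4 of 5 reached into an initiation zone, and of the PRC1 genes 1 of 5. Ezh2, Eed, Suz12 and Jarid2 of PRC2 and Rnf2 of PRC1 had a gene end inside a zone, and Ezh1, Ring1, Bmi1, Pcgf6 and Cbx7 had none. Ends inside zones were found for 32.4% of all protein-coding genes. Counting ends up to 20 kb beyond a zone edge added no member, so the counts stayed at 4 and 1, while the share of all protein-coding genes was 38.5%. The member nearest to that limit from outside was Cbx7, at 23.8 kb. The members' nearer ends had a median distance of 48.8 kb to a breakpoint (24.2 kb for PRC2 and 109.6 kb for PRC1), against 129.1 kb for all protein-coding genes. Measured from gene midpoints, 3 members were inside a zone (22.5% of all protein-coding genes), and the medians were 100.6 kb and 151.9 kb. These are counts of genes in 1 library of unknown depth with no replicate error, so no test was made of PRC2 against PRC1 or of the members against other genes. When the 1429 zones of median width or more were kept alone, Ezh2 and Suz12 left the count, and 2 of 5 PRC2 genes and 1 of 5 PRC1 genes were within 20 kb, beside 23.4% of all protein-coding genes, and the members' median distance to a breakpoint was 237.1 kb beside 323.3 kb. The zone of Suz12 is 111 kb wide and missed the median of 112 kb by 1 kb, whereas that of Ezh2 is 76 kb wide.

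**Figure D1:**
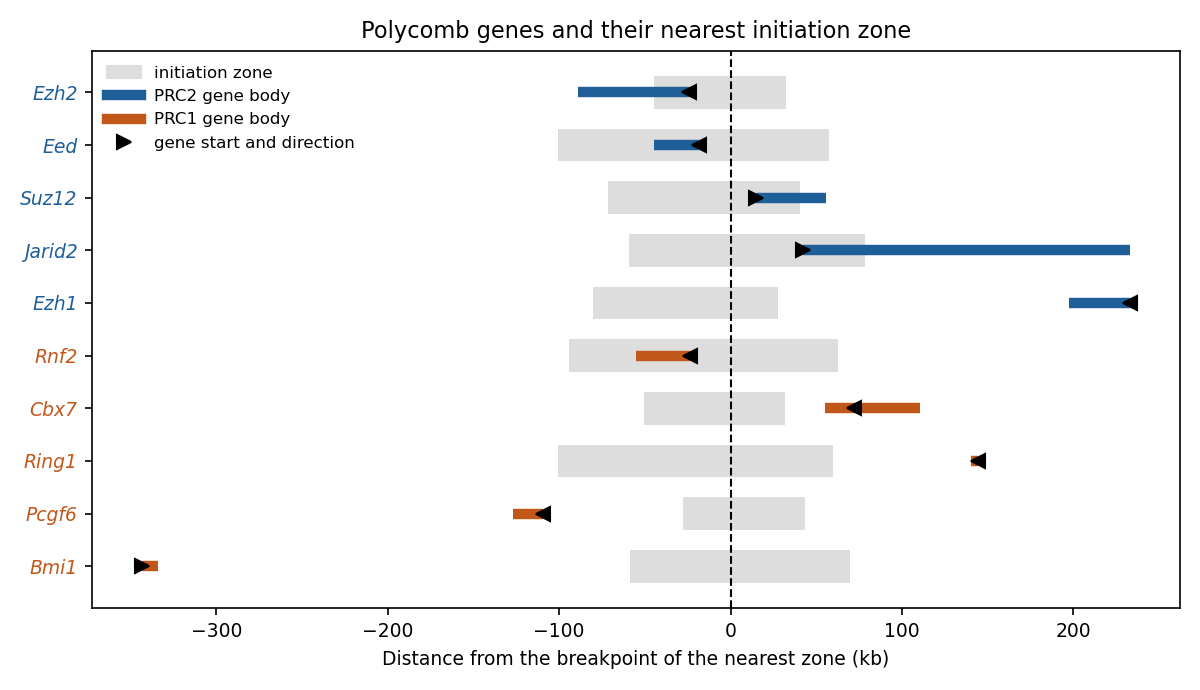
The 10 genes are drawn by distance in kb from the breakpoint (dashed line) of their nearest initiation zone (grey), with PRC2 gene bodies in blue, PRC1 in orange and a black arrowhead at the gene start that points in the direction of transcription. The 5 genes that start inside a zone, Ezh2, Eed, Suz12, Jarid2 and Rnf2, all point away from the breakpoint, at 14.6 to 42.3 kb from it.

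The core of PRC2 is the enzyme Ezh2, or its relative Ezh1, with the partners Eed and Suz12. Ezh2, the main H3K27 methyltransferase of proliferating cells, lies on the minus strand of chromosome 6 (chr6:47530274-47595270). Its start lay inside a zone (chr6:47575001-47652000), 24.5 kb left of the breakpoint bin (chr6:47619001-47620000) and 55.6% of the way along the left arm of 44 kb. The zone took in the first 20.3 kb of the gene, 31.2% of its body. With 76 kb this was a narrow zone, since 19.8% of all zones were narrower. No other protein-coding gene had an end in it, and the next genes were Cul1, which encodes the scaffold of SCF ubiquitin ligases, 4.13 kb to the left, and Gm40369, 57.6 kb to the right. A second zone (chr6:47407001-47472000) lay 58.3 kb beyond the far end of Ezh2, so that the gene sits between breakpoints only 169 kb apart.

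Eed binds H3K27me3 and thereby anchors PRC2 to chromatin that already carries the mark. The whole gene (chr7:89954654-89980976, minus strand) lay within a zone of 157 kb (chr7:89899001-90057000), and its start was 18.5 kb left of the breakpoint bin (chr7:89999001-90000000). The left arm of this zone is 1 of those that end at the 100 kb limit. It also held ends of Hikeshi and Ccdc81, at 58.3 and 95.9 kb from the breakpoint. On the other side of the breakpoint no protein-coding gene began before Picalm, 149.2 kb from Eed.

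Suz12, the scaffold subunit on which PRC2 assembles, had the start nearest to a listed breakpoint bin of all 10 genes. With the zone's midpoint in its place, the nearer ends of Eed (2.98 kb), Rnf2 (7.51 kb) and Ezh2 (18.2 kb) were closer than that of Suz12 (30.1 kb). It lies on the plus strand of chromosome 11 (chr11:79993106-80034123), and its start was 14.6 kb right of the breakpoint bin (chr11:79978001-79979000) in a zone of 111 kb (chr11:79907001-80019000). The zone covered the first 25.9 kb of the gene, or 63.1% of it. Utp6, a gene of ribosome biogenesis, was the other protein-coding gene of the zone and had an end 16.1 kb from the same breakpoint on its left. The breakpoint thus fell in the 30.7 kb between Utp6 and Suz12. Crlf3 followed 12.4 kb beyond Suz12, outside the zone.

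Jarid2 helps to bring PRC2 to its targets in embryonic stem cells and is the longest of the 10 genes, at 190.9 kb. It starts on the plus strand of chromosome 13 (chr13:44730774-44921643), 42.3 kb right of the breakpoint bin (chr13:44688001-44689000) in a zone of 137 kb (chr13:44629001-44767000). The zone held the first 36.2 kb of the gene and an end of no other protein-coding gene. Its surroundings were empty of coding genes on the left, where Cd83 was the next gene at 927.6 kb. On the right, the nearer end of Dtnbp1 lay 0.436 kb beyond Jarid2, and the next breakpoint was 431.9 kb away.

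Ezh1, the methyltransferase that takes over from Ezh2 mainly in cells that have stopped dividing, was the PRC2 gene outside zones. It lies on the minus strand of chromosome 11 (chr11:101191115-101226463), 170.1 kb from the zone on its left (chr11:100913001-101021000) and 175.5 kb from the zone on its right (chr11:101402001-101499000). Its start was 233.0 kb from the left and 238.0 kb from the right breakpoint, that is, at 49.5% of the gap of 471 kb and almost midway. The gene had 30 other protein-coding genes within 250 kb, against 11 for Ezh2, and a median of 9 over all protein-coding genes. The next genes were Cntnap1, 0.391 kb to the left, and Ramp2, 19.9 kb to the right. Of the pair of paralogs, Ezh2 was in a zone and Ezh1 outside, with 62.4% of all protein-coding genes nearer to a breakpoint than Ezh1.

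Ring1 and Rnf2, also called Ring1A and Ring1B, are the alternative ubiquitin ligase subunits of PRC1, and Rnf2 is the main one in embryonic stem cells. Rnf2 (chr1:151469398-151500991, minus strand) was the PRC1 gene inside a zone. The zone (chr1:151430001-151587000) was 156 kb wide, wider than 88.5% of all zones, and contained the whole gene. The start of Rnf2 was 23.5 kb left of the breakpoint bin (chr1:151524001-151525000). The zone also held an end of Niban1, 46.9 kb from the breakpoint on its right, and of Trmt1l, a gene for a tRNA methyltransferase relative, 66.3 kb on its left.

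Ring1 lies in the major histocompatibility complex, on the minus strand of chromosome 17 (chr17:34020792-34024680), between H2-K1, 20.2 kb to its left, and H2-Ke6, 1.35 kb to its right. It was 80.8 kb from a zone (chr17:33780001-33940000) and 140.3 kb from its breakpoint, with 52.4% of all protein-coding genes nearer to a breakpoint. That zone held ends of 12 protein-coding genes, the central ones being the kinesin gene Kifc1, in whose body the breakpoint fell, Smim40, and Daxx, which encodes a histone H3.3 chaperone. To the right the next breakpoint was 586.8 kb away. With 32 coding neighbours within 250 kb, Ring1 had the most crowded surroundings of the 10 genes. The Ring1 pair split in the same way as the Ezh pair, with Rnf2 inside and Ring1 outside. How often other pairs split was not tested, and the share of coding genes reaching into a zone was 32.4%. Of 5 Cbx genes 1 was inside a zone, Cbx6. Cbx7, whose product reads H3K27me3 in embryonic stem cells, was outside.

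Bmi1 and Pcgf6 encode alternative Pcgf subunits, which decide what form of PRC1 is built. Bmi1, of the canonical form, was the member farthest from any zone. It is a short gene on the plus strand of chromosome 2 (chr2:18677018-18686629), 275.4 kb from the zone on its right (chr2:18962001-19090000) and 604.0 kb from that on its left. In the whole set of protein-coding genes 77.8% were nearer to a breakpoint than its 333.9 kb. The nearer end of Commd3 lay 0.787 kb to its left and that of Gm46725 0.873 kb to its right, and the nearest zone held an end of Pip4k2a, a phosphoinositide kinase gene. Pcgf6, of a variant form of PRC1 that acts on germline genes, lay at chr19:47033617-47050939 on the minus strand, 82.1 kb from a zone (chr19:47133001-47204000) and 109.6 kb from its breakpoint. Its neighbours were Ina, 8.29 kb to the left, and Taf5, 16.8 kb to the right, and the zone held ends of Calhm1, Neurl1a and Calhm2 at 16.3, 18.3 and 22.2 kb from its breakpoint.

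Across the Pcgf family, named after its values were seen, 1 of 6 genes had an end inside a zone, beside 32.4% of all protein-coding genes. The gene inside was Pcgf3, which forms a variant PRC1, at 21.5 kb from a breakpoint. Pcgf2, the close relative of Bmi1, lay 18.8 kb from a zone, followed by Pcgf6, Pcgf5 at 174.3 kb, Bmi1, and Pcgf1 at 341.6 kb.

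Cbx7 encodes the chromodomain subunit that reads H3K27me3 for canonical PRC1 in embryonic stem cells. RefSeq gives it a span on the minus strand of chromosome 15 (chr15:79915804-79971143), whose left end lay 23.8 kb from a zone (chr15:79810001-79892000) and 55.3 kb from its breakpoint. The start listed in the promoter table lies inside this span, 72.1 kb from that breakpoint. Cbx7 overlaps Apobec3 on its left. A second zone (chr15:80039001-80179000) began 67.9 kb to its right, and the breakpoints on either side of its start were 235 kb apart. The zone next to Cbx7 was the zone of Cbx6, another chromodomain gene, which lay within it and had its start, where the span of the overlapping Npcd also stops, 26.2 kb from the breakpoint. Cbx8 and Cbx2, further chromodomain genes of PRC1, lie on chromosome 11 and were 239.1 and 248.7 kb from a zone.

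The breakpoints of the 5 zones that held a member fell in no annotated protein-coding gene body, and none of the 10 members held a breakpoint in its own body. Among all protein-coding genes 4.02% hold one. The members inside zones had few coding neighbours, between 1 for Jarid2 and 11 for Ezh2 within 250 kb (median 5). Those outside had between 4 for Bmi1 and 32 for Ring1 (median 15). Over all protein-coding genes the medians were 9 for genes with an end inside a zone and 10 for the rest, and the difference among the members was not tested. Gaps between the breakpoints on either side of the start were 169 to 192 kb for Ezh2, Suz12 and Rnf2 and 632 and 665 kb for Eed and Jarid2. The median over genes with an end inside a zone was 569 kb.

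All 5 members that started inside a zone were read away from its breakpoint. Ezh2, Eed and Rnf2 began left of the breakpoint and are on the minus strand, and Suz12 and Jarid2 began right of it and are on the plus strand. A gene placed in this way is read in the direction in which forks that leave the breakpoint are taken to travel. Fork direction at each gene was not measured here, since the list holds no strand signal. Strand and start were known for 16457 of the protein-coding genes, among them all 10 members. Of these, 27.8% started inside a zone, and 63.4% of the starts inside zones were read away from the breakpoint. At 14.6 to 42.3 kb from the breakpoint, where the 5 members began, the share among 2068 starts was 69.0%. These shares were not matched for gene length. Each of the 5 members is longer than the distance from its start to the breakpoint. Reading toward the breakpoint would therefore have placed it inside the gene body. The direction of the 5 is thus not separate from their lack of a breakpoint in the body. With the point midway between the zone edges in place of the listed breakpoint the count was 4 of 5, because Eed then began on the other side. The share among all protein-coding starts inside zones was then 61.1%.

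**Figure D2:**
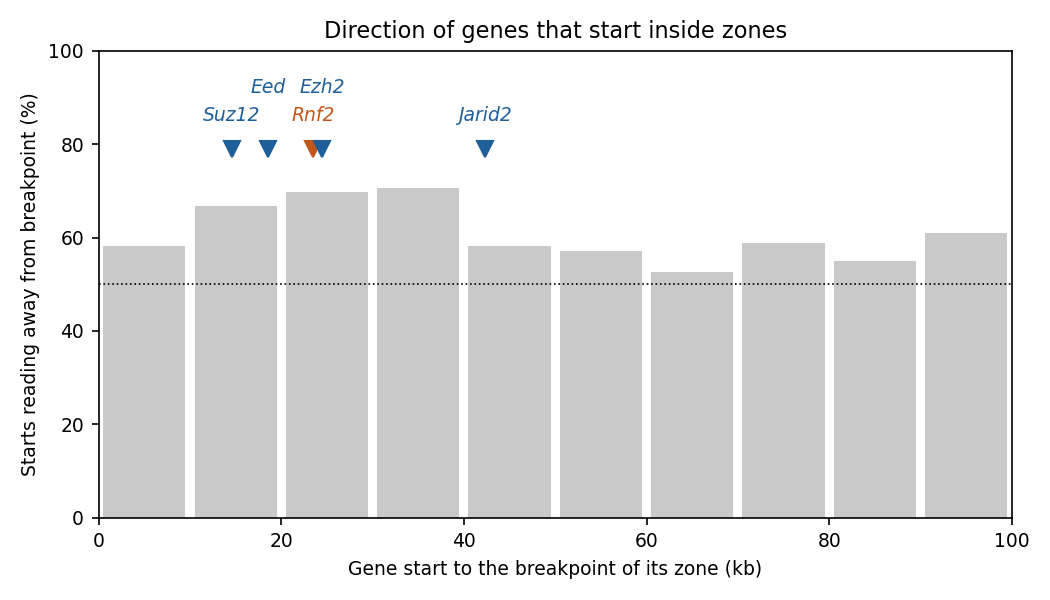
Bars give the percentage of protein-coding gene starts inside zones that are read away from the breakpoint, by distance from the breakpoint in steps of 10 kb, and the dotted line marks 50%. Triangles mark the distances of the 5 members that start inside zones (PRC2 blue, PRC1 orange; their height has no meaning), and the bars are highest at 10 to 40 kb, where 4 of the 5 lie.

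Outside zones, Ezh1, Ring1, Bmi1 and Cbx7 were read toward the nearest listed breakpoint and Pcgf6 away from it. The start of Ezh1 was almost midway, 233.0 kb from the left and 238.0 kb from the right breakpoint. With the point midway between the zone edges in place of the breakpoint, its nearest zone was the right one, at 224.0 kb. Ezh1 was then read away. Among all protein-coding genes that start outside zones 50.1% were read away from the nearest breakpoint, so neither direction prevailed there.

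The promoters of the members are shown for the 5 genes that start in a zone, and for Ezh1 and Ring1 as the paralogs outside. Each is the window of 300 bases from 250 before the gene start to 50 after it, taken from RefSeq on GRCm38.p6, printed 5′ to 3′ on the strand of the gene, with CG dinucleotides in capitals. The windows are chr6:47594981-47595280 (minus strand) for Ezh2, chr7:89980927-89981226 (minus) for Eed, chr11:79992856-79993155 (plus) for Suz12, chr13:44730524-44730823 (plus) for Jarid2, chr1:151500942-151501241 (minus) for Rnf2, chr11:101226414-101226713 (minus) for Ezh1 and chr17:34024631-34024930 (minus) for Ring1.
Ezh2: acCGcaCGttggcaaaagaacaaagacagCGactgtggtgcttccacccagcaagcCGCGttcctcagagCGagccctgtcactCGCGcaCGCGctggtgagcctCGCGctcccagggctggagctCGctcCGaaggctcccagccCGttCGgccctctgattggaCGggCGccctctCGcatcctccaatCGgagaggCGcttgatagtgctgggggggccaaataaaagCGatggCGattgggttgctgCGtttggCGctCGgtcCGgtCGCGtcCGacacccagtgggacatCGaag
Eed: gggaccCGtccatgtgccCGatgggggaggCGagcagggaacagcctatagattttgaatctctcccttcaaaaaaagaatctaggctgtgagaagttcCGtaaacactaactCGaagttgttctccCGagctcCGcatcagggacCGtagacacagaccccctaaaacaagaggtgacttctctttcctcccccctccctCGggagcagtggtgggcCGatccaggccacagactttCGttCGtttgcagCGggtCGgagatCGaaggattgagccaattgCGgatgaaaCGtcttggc
Suz12: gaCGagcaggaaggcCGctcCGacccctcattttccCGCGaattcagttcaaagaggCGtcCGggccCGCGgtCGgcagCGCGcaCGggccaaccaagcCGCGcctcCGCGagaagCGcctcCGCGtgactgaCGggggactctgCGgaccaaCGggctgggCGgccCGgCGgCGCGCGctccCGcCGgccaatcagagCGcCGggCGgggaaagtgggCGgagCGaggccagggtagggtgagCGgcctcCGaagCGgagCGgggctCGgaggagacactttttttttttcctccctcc
Jarid2: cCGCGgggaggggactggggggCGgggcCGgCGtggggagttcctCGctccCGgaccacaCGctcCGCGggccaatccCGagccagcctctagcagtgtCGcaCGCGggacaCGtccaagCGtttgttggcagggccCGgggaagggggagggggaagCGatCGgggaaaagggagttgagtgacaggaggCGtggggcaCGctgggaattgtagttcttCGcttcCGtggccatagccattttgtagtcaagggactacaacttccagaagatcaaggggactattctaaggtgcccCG
Rnf2: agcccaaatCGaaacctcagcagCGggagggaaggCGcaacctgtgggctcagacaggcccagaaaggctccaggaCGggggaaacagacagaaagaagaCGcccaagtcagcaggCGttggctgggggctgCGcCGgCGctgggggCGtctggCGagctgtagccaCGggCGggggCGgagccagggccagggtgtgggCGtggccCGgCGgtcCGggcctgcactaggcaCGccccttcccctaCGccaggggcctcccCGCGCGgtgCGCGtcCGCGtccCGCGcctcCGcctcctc
Ezh1: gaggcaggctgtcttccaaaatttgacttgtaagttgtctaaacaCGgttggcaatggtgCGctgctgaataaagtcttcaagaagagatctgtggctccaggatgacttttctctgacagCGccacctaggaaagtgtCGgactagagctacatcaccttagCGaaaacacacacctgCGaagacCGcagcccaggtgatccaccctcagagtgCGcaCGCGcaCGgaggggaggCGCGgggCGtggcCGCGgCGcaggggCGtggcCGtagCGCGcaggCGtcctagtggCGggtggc
Ring1: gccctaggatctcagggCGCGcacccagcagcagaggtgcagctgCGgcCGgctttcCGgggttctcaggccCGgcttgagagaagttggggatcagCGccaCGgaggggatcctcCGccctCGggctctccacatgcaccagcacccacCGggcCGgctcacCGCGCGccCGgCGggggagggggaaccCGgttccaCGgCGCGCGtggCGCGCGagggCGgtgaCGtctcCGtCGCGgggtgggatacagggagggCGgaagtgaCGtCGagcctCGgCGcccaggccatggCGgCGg

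In these windows CG dinucleotides, the sites of DNA methylation in mammals, were frequent in members inside and outside zones alike. Suz12 had 41, more than 95.6% of all promoters, Ezh2 31, Rnf2 30, Jarid2 24 and Eed 17. Outside zones Ring1 had 37, Cbx7 33, Ezh1 and Bmi1 23 each and Pcgf6 22. The ranges of the inside group (17 to 41) and the outside group (22 to 37) overlapped. Over all 16457 promoters the median was 14, with 20 for starts inside zones and 10 for starts outside. Each member outside zones thus had more CG than the median promoter outside, and each inside more than the median promoter inside except Eed.

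**Figure D3:**
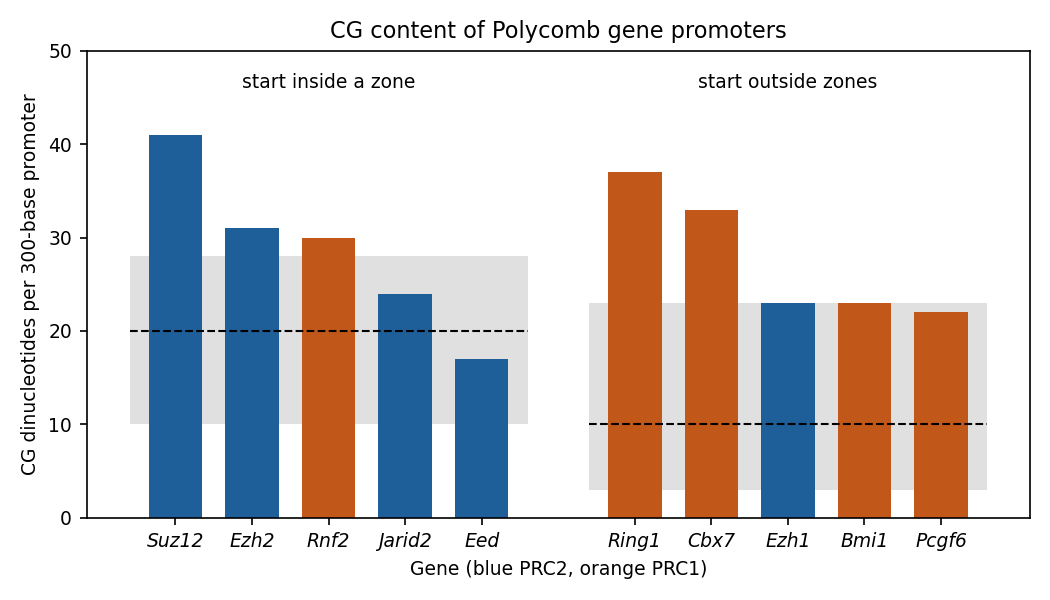
Bars give the number of CG dinucleotides in the promoter window of 300 bases of each member, for genes that start inside zones (left) and outside (right), with PRC2 in blue and PRC1 in orange. The dashed line and grey band are the median and quartiles of all protein-coding promoters of the same kind, with medians of 20 inside and 10 outside, and the bar of Eed at 17 is the one below its line.

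Short motifs were searched on both strands of the same windows. The GC box GGGCGG, the letters bound by Sp1, was present in Suz12, Jarid2 and Rnf2 among the 5 members inside zones and in Ring1, Bmi1, Pcgf6 and Cbx7 among the 5 outside, while 47.3% of all promoters hold it. Each GC box contains a CG, so these counts are not separate from those above. The E2F motif TTTGGCGC or TTTCGCGC was found in Ezh2 alone, and in 1.11% of all promoters. The TATA box TATAAA was in none of the 10 windows and in 13.5% of all. A match or its lack describes these letters in this window and nothing about the factor.

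Other genes of the Polycomb system and genes of enzymes that act against it, taken from 6 lists of 45 genes, were placed in the same way. The 41 of them on chromosomes 1 to 19 included 18 that reached into a zone (43.9%, against 32.4% of all protein-coding genes). A distance of at most 20 kb was found for 23 (56.1%, against 38.5% of all). Measured from gene midpoints, 15 were within 20 kb, beside 29.9% of all. Among the 23 were 5 of the 6 genes for MLL and SET1 enzymes, which act against Polycomb silencing, and 2 of these reached into a zone. Rbbp7, Bcor, Bcorl1 and Kdm6a lie on chromosome X, which was not analysed here. The lists were chosen by function, with earlier results of these data known, and share zones among neighbours, so their counts are a description.

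The list of PRC2 accessory genes had 4 of 6 within 20 kb (66.7%, beside 38.5% of all protein-coding genes), of which 3 were inside (50%, beside 32.4%). Besides subunits that steer PRC2, the list holds Rbbp4. Epop, which links PRC2 to elongin, had an end 0.784 kb from a breakpoint, and Mtf2, a reader that recruits PRC2 to CpG islands, 22.2 kb. Rbbp4, the histone-binding subunit, was 1.10 kb outside a zone. Aebp2 was farthest, at 852.5 kb.

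Canonical PRC1 genes had 4 of 9 within 20 kb (44.4%, beside 38.5% of all protein-coding genes) and 3 inside (33.3%, beside 32.4%). The polyhomeotic gene Phc3 started 11.1 kb from a breakpoint and Cbx6 26.2 kb, and Cbx2 was farthest from a zone. Pcgf2 and Epop have the same nearest zone (chr11:97550001-97670000). Variant PRC1 genes had 7 of 11 within 20 kb, all inside (63.6%, beside 32.4% of all protein-coding genes). Fbrs held a breakpoint in its body, 3.09 kb from its nearer end, and Auts2 had an end 21.3 kb from a breakpoint. Rybp, which encodes a subunit of variant PRC1, was the farthest gene of all lists, at 1657 kb from a zone.

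The PR-DUB complex, which removes ubiquitin from H2A, had 3 of 8 genes within 20 kb (37.5%, beside 38.5% of all protein-coding genes). Foxk2 and Asxl2 were 13.5 and 31.7 kb from a breakpoint and Foxk1 was 335.0 kb from a zone. The H3K27 demethylase gene Kdm6b was 105.6 kb from a zone. The MLL and SET1 enzymes methylate H3K4 and act against Polycomb silencing. Of their 6 genes 5 were within 20 kb, beside 38.5% of all protein-coding genes. Only 2 were inside (33.3%, beside 32.4% of all). Kmt2d, Kmt2b and Setd1a lay outside, at 7.92, 9.95 and 19.4 kb from a zone. Breakpoints lay 13.9 kb from Kmt2a and 64.6 kb from Kmt2c, and Setd1b was the farthest, at 68.0 kb from a zone.

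**Figure D4:**
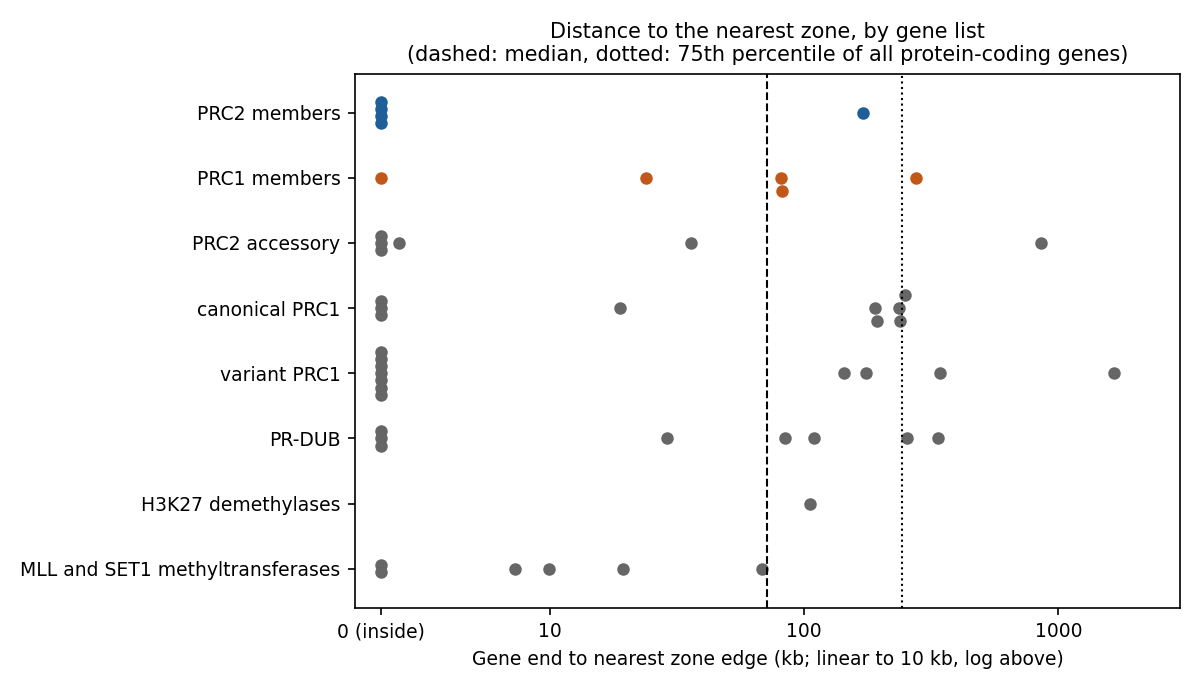
Each point is a gene, placed by the distance in kb from its nearer end to the nearest zone edge (linear up to 10 kb, logarithmic above, 0 for genes inside), with PRC2 members in blue, PRC1 members in orange and the wider lists in grey; points are shifted vertically only to separate them. The dashed and dotted lines are the median (71.2 kb) and the 75th percentile (242.0 kb) of all protein-coding genes, and 4 PRC2 members and 1 PRC1 member stand at 0.

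Among the wider genes that start inside a zone and have a known strand, 10 of 14 were read away from the breakpoint (71.4%, beside 63.4% of all such protein-coding genes). Mtf2, Cbx6, Phc1, Phc3, Kdm2b and Foxk2 were among these, and Phf1, Pcgf3, E2f6 and Fbrs were read toward it. By list, the share read away was 3 of 3 in canonical PRC1, 2 of 2 in PR-DUB, 2 of 2 in the MLL and SET1 enzymes, 2 of 5 in variant PRC1 and 1 of 2 in the PRC2 accessory subunits.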

How the data were processed

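The measurement is a list of replication initiation zones from 1 wild-type OK-seq library. Per the submitters' processing notes the build was mm10, and Trim Galore 0.4.2, BWA 0.7.13, Picard 2.8.2, SAMtools, Bowtie and bcl2fastq were used. The role of each tool and the calling of zones were not given in sources used here. Per the file headers, the deposited values are not counts but other numbers, namely distances in bp from a breakpoint bin to a minimum and a maximum. The depth is unknown. Bins were read as 0-based, half-open intervals.

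Gene ends came from RefSeq (GRCm38.p6), and strand and start from its promoter table, with the most upstream start where several are listed. Genes on scaffolds, X and Y were left out. The distance of a gene is that of its nearer end to the zone edge (0 inside) or to the middle of the breakpoint bin. Distances were computed in Python 3.11.15 with pandas 2.3.3 and tested on simulated data. The members and lists were chosen with earlier results of these data known. Named are all members, genes of their zones nearest the breakpoint or their neighbours, and in each wider list up to 2 genes nearest a breakpoint inside a zone and the 1 farthest from zones; others, the Pcgf and Cbx families included, were named after their values were seen. No test was made. Alternatives were other limits, zone subsets, reference points and starts.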

Additional observations from a re-analysis of the deposited data

How the results depend on the processing

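No paired analysis was possible because 1 library was analysed and no groups were compared. Of 35 alternative values for counts and medians, 25 stayed within 1.5 times the reported count or 1 kb of the median. With only zones of median width or more, 3 members were inside a zone (20.1% of all protein-coding genes). Within 20 kb were 3 members, 2 of them of PRC2, and 12 genes of the wider lists (23.4% of all). The members' median distance to a breakpoint became 237.1 kb (323.3 kb for all protein-coding genes). Of the members starting in such zones 3 of 3 were read away from the breakpoint, beside 61.0% of all starts in them. With gene midpoints, 3 members were inside (22.5% of all), 15 wider genes were within 20 kb (29.9% of all), and the median distance was 100.6 kb (151.9 kb for all). With a limit of 50 kb, PRC1 had 2 of 5 genes near a zone, Cbx7 being added, beside 45.4% of all protein-coding genes. Leaving out zones with an arm at 100 kb removed Eed, which left 4 members inside (27.9% of all protein-coding genes). Joining overlapping zones and taking gene ends as starts, both chosen after seeing the data, changed no count of members. Single distances to a breakpoint stayed within 1 kb in 5 of 20 cases; taking the zone's midpoint for the breakpoint moved Eed from 18.5 to 2.98 kb and Suz12 from 14.6 to 30.1 kb. With 1 library of unknown depth, a gene outside all zones is one where no zone was listed, not one without initiation.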

Other observations

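Non-coding genes also lay in the zones of the members, and none of the 5 breakpoints fell in the body of one. In the zone of Suz12 the long non-coding RNA gene Gm30875 was 3.31 kb from the breakpoint, nearer than Suz12 itself, and in the zone of Rnf2 the pseudogene Gm19503 was 3.73 kb from it. The long non-coding RNA gene F830010H11Rik (chr6:47595209-47597538) overlapped the edge of the RefSeq span of Ezh2, upstream of the start used here, and reached to 22.0 kb from the breakpoint on its left. In the zone of Eed, E230029C05Rik lay 29.7 kb from the breakpoint, on the side without coding genes, and in that of Jarid2, Gm40931 lay 51.5 kb from it.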
